A study of Mus musculus with 24 samples.

Results

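The 10 endothelial leukocyte adhesion molecules Vcam1, Icam1, Icam2, Sele, Selp, Madcam1, Pecam1, F11r, Jam2 and Esam were followed through 24 Agilent arrays of sorted mouse endothelium. They were taken by name from the 18539 gene symbols on the array, through the accession of each probe, and 13 of the 41174 non-control probes belonged to them. Vcam1, Selp and Jam2 had 2 probes each, and the brightest probe of a gene in a tissue gave its level there. The galectin-3 knockout mice (KO, B6.Cg-Lgals3tm1Poi/J) carry a deletion of exons 2 to 4 of Lgals3 that takes the initiating codon, and the wild-type mice (WT) were C57BL/6. Males of each strain were placed at 8 weeks of age on a high-fat diet (HFD) with 60% of calories from fat or on chow with 12%, and stayed on it for 8 weeks. In each of 3 experiments the aortas, and the leg muscles, of 3 mice of a strain and diet (3 to 4 according to the GEO design text) were pooled, and live cells with surface CD105 (endoglin) and without CD45, the common leukocyte antigen, were sorted. Their RNA was amplified and hybridised with Cy3 on 1 array per pool and tissue, which gave 8 groups (aorta or muscle, WT or KO, chow or HFD) of 3 arrays. Every sample is thus a pool of animals, and the gate admits any CD105-positive cell that lacks CD45.

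Leukocytes leave the blood in steps. P-selectin (Selp), kept in the Weibel-Palade bodies of endothelial cells and also in the granules of platelets, and E-selectin (Sele), made after cytokine exposure, slow them into rolling. Vcam1, the ligand of the integrin α4β1, Icam1 and Icam2, the ligands of the β2 integrins, and Madcam1, the ligand of α4β7 best known from gut and lymphoid venules, hold them firmly. Pecam1 (CD31), F11r (JAM-A), Jam2 (JAM-B) and Esam lie at the borders between endothelial cells, which leukocytes cross. Vcam1, Icam1 and Sele are classical targets of TNF, IL-1 and NF-kB in endothelium, whereas Icam2, Pecam1 and Esam are present in resting endothelium.

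Promoter sequence of RefSeq (GRCm38.p6), 250 bases before to 50 after the annotated start, was matched to 5 of the 10 members, namely Icam1, Sele, Selp, Madcam1 and F11r. The promoters of the 2 selectins and of the 2 integrin ligands are shown because these are the cytokine-regulated or inducible members among them. They lie at chr9:21015690-21015989 (Icam1), chr1:164047984-164048283 (Sele), chr1:164115014-164115313 (Selp) and chr10:79664309-79664608 (Madcam1), all on the + strand, and capitals mark TATAAA or an NF-kB site found on either strand.
Icam1: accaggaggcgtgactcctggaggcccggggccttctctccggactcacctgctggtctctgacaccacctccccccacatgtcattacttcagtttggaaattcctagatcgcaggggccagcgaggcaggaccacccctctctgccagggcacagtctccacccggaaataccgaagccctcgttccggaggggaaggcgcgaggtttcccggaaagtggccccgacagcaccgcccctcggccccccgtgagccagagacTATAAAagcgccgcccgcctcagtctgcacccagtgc
Sele: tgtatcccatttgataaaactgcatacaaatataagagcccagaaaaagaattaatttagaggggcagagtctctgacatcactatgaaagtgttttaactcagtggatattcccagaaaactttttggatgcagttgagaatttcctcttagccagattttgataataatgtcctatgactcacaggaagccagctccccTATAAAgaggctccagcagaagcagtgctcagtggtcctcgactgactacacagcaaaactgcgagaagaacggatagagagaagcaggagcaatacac
Selp: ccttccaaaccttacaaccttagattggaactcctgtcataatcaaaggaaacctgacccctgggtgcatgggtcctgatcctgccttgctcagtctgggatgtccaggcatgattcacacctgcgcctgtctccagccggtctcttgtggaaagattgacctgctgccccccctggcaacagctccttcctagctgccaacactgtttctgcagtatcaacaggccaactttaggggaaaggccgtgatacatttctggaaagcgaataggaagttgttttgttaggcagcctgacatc
Madcam1: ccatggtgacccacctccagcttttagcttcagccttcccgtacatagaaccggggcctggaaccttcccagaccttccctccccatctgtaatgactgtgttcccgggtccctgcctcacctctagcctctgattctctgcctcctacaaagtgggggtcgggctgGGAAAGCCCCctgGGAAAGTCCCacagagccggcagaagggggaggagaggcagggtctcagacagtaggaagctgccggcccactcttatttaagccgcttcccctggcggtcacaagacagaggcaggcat
Icam1 held TATAAA starting 13 bases after the annotated start, and Sele held it 49 bases before the start. Madcam1 held 2 NF-kB sites, both on the reverse strand, 83 and 70 bases before the start. No NF-kB site was found in the windows of Icam1, Sele, Selp and F11r. The search took only the strict consensus of that site, which begins with GGG and ends with CC, so it says nothing of looser forms. The ETS core GGAA, not marked here, was found 7 times in Icam1, 3 times in Sele, 8 times in Selp, 9 times in Madcam1 (2 of them inside the NF-kB matches) and 4 times in F11r. Of all 32851 RefSeq promoters, 5.8% held the NF-kB site, 13.6% TATAAA and 96.0% GGAA.

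Levels are given as the log2 of a spot's deposited signal over the 75th percentile of all signals on that array. The 75th percentile ranged from 2390 to 5938 over the arrays, 59.6% to 75.7% of the 43379 spots other than controls passed the scanner's test for a signal well above background, and no member was saturated. Lgals3, the targeted gene, was read by 1 probe, and whether that probe lies in the deletion was not analysed here. The arrays labelled KO were not lower, since they were above the WT array of their tissue, diet and experiment in 11 of 12 pairs (aorta 2.40 to 4.53 in KO and 0.90 to 3.20 in WT, muscle 4.31 to 6.31 and 3.27 to 4.98), so this probe does not check the labels. On a scale from 0 (WT) to 1 (KO), built from 10 probes that separate the strains by at least 1 log2 on the 16 arrays of experiments 2 and 3, the chow arrays of experiment 1 lay at −0.08 to 0.06 (WT) and 0.89 to 0.98 (KO). On HFD, the arrays of experiment 1 fell between WT and KO, at 0.20 to 0.51 (labelled WT) and 0.48 to 0.51 (labelled KO). Each result on strain or on diet within a strain is therefore also given without experiment 1. The arrays lay on 6 slides, 1 for each tissue and experiment, and experiment 1 was scanned in a session of its own. WT and KO occupied different positions on every slide, so strain and position cannot be told apart. All 10 endothelial markers (Cdh5, Tek, Kdr, Tie1, Cldn5, Erg, Eng, Egfl7, Robo4 and Flt1) were well above background on all 24 arrays.

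All 10 members were detected in both endothelia. Each was well above background on 12 of 12 arrays of each tissue, except Sele in muscle, which was so on 10 of 12. Signals of different probes are not comparable, so the levels are ordered within each gene across the 8 groups. For Vcam1 the 4 aortic groups had the highest means, from 4.41 ± 0.42 (SD, n = 3) in KO chow to 4.06 ± 0.44 in WT chow, and their neighbours in that order differed by less than the spread between arrays. The muscle groups followed, from 3.13 ± 0.23 in WT HFD to 2.25 ± 0.44 in WT chow. Icam2, F11r, Jam2, Esam and Madcam1 had the opposite order, with the 4 muscle groups above the 4 aortic groups. For Esam the means ran from 5.44 ± 0.19 (muscle KO chow) to 5.15 ± 0.26 (muscle WT HFD) and then from 4.54 ± 0.09 (aorta KO chow) to 3.05 ± 0.92 (aorta WT HFD). The 4 aortic groups also had the higher means for Icam1, from −1.28 ± 0.75 (WT chow) to −1.79 ± 0.99 (WT HFD), but the groups overlapped widely, and muscle KO HFD was lowest at −3.05 ± 0.44. For Sele and Pecam1 the groups of the tissues were interleaved. Selp, read on a different probe in each tissue, was ordered within aorta only, from −0.89 ± 0.76 (KO chow) to −2.23 ± 0.99 (WT HFD).

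**Figure D1:**
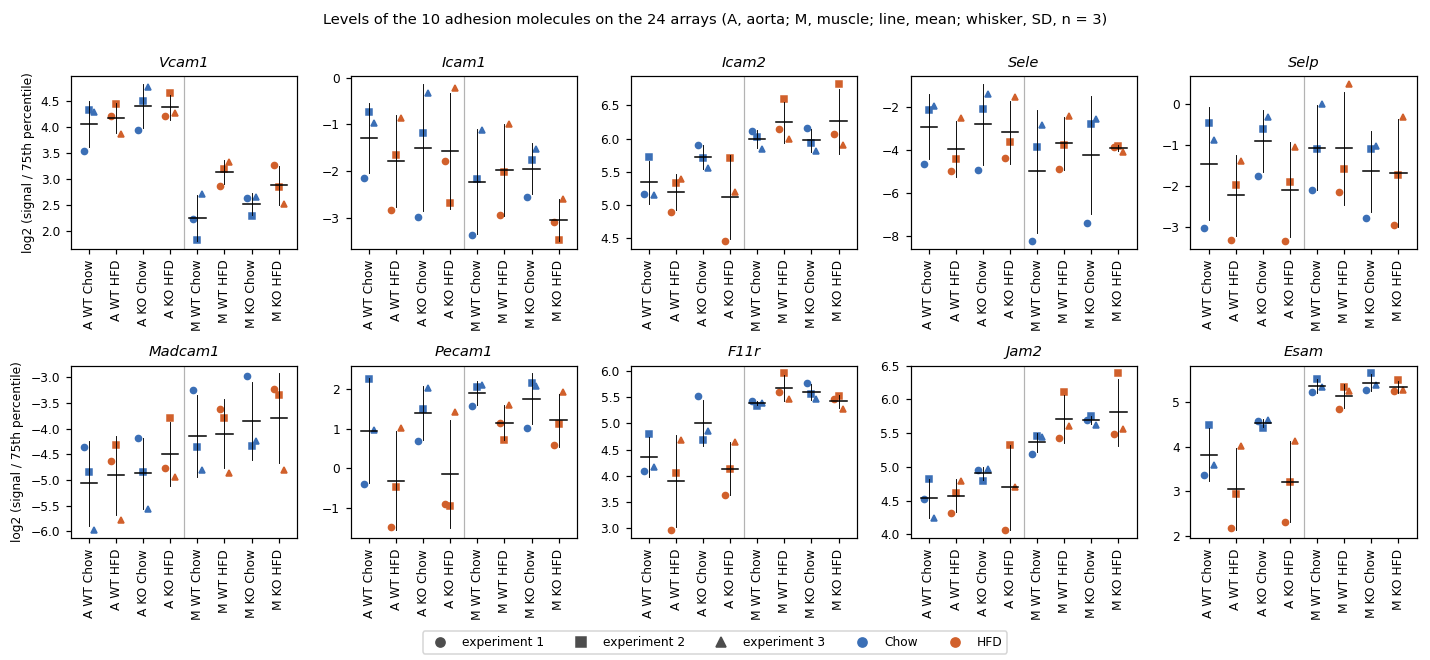
Level of each member on each array, as log2 of the signal over the 75th percentile of the array (y axis, a scale of its own in each panel), in the 8 groups of tissue, strain and diet (x axis). Points are arrays, shaped by experiment and coloured by diet, lines are means and whiskers SDs (n = 3), and Selp is drawn from a different probe in each tissue. The aortic Vcam1 arrays all lie at 3.55 or higher and the muscle arrays at 3.32 or lower, whereas the Esam arrays of muscle all lie above those of aorta.

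The first comparison asked how the adhesion molecules of aortic and muscle endothelium differ. Vcam1 was 2.95-fold higher in aorta (log2 difference 1.56, SE 0.21, adjusted p = 2.2e-05 in limma, 12 arrays per tissue), while Esam was 3.18-fold lower (−1.67, SE 0.28, adjusted p = 0.00023). F11r (−1.17, SE 0.26, adjusted p = 0.0025), Jam2 (−0.97, SE 0.21, adjusted p = 0.0016) and Icam2 (−0.77, SE 0.21, adjusted p = 0.0091) were also lower in aorta. Thus 5 of the 10 members passed, 1 higher and 4 lower, where 28.2% of all 27387 probes tested passed (11.5% higher and 16.7% lower in aorta). The median over the members was −0.82 and that over the 14425 genes tested was −0.20. Across all probes the median was −0.27, and relative to it Vcam1 stood at 1.83 and Esam at −1.40. In such bulk samples, fewer cells of a type and less RNA per cell cannot be told apart.

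The leukocyte ligand Vcam1 was on the 12 aortic arrays at 3.94, 4.51 and 4.77 (KO chow, experiments 1 to 3), 4.21, 4.67 and 4.27 (KO HFD), 3.55, 4.33 and 4.29 (WT chow) and 4.22, 4.45 and 3.88 (WT HFD). In muscle it was at 2.64, 2.28 and 2.65 (KO chow), 3.27, 2.84 and 2.53 (KO HFD), 2.22, 1.82 and 2.71 (WT chow) and 2.87, 3.20 and 3.32 (WT HFD). The lowest aortic array was above the highest muscle array, and aorta was higher in all 12 pools, by 0.55 to 2.51. Its second, dimmer probe gave a larger difference (2.63, SE 0.38, adjusted p = 4.2e-05), also without overlap. Icam1, the ligand of LFA-1 and Mac-1, was higher in aorta in 11 of 12 pools, but its difference of 0.76 (SE 0.46, adjusted p = 0.22) did not pass. Icam1 ranged from −2.98 to −0.22 in aorta and from −3.47 to −0.98 in muscle, so the tissues overlapped over most of their range. Icam2, by contrast, was lower in aorta in all 12 pools, at 4.46 to 5.90 against 5.82 to 6.82 in muscle. Madcam1, the α4β7 ligand, was also lower in all 12 (−0.87, SE 0.35), without passing (adjusted p = 0.069).

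Neither selectin passed. Sele was higher in aorta in 8 of 12 pools (0.99, SE 0.84, adjusted p = 0.39), and its widest gap (3.60) was in WT on chow in experiment 1. There the muscle array was at −8.25 and the probe was not well above background, as on the KO chow array of that experiment (−7.42). Selp was higher in 5 pools and lower in 7 (−0.30, SE 0.39, adjusted p = 0.58), and both of its probes had the same split.

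Of the 4 junction molecules, Esam, F11r and Jam2 were called lower in aorta. Esam, a tight junction protein of endothelium and platelets, was on the aortic arrays at 4.57, 4.43 and 4.60 (KO chow), 2.31, 3.20 and 4.14 (KO HFD), 3.37, 4.50 and 3.60 (WT chow) and 2.19, 2.94 and 4.02 (WT HFD). In muscle it lay at 5.28, 5.65 and 5.40 (KO chow), 5.26, 5.50 and 5.28 (KO HFD), 5.23, 5.54 and 5.35 (WT chow) and 4.85, 5.34 and 5.25 (WT HFD). No aortic array reached the lowest muscle array, and the aortic HFD arrays of experiments 1 and 2 were the farthest below. F11r, whose product binds LFA-1 and seals junctions, was lower in all 12 pools (by 0.25 to 2.64), as was Jam2, a ligand of α4β1 (by 0.63 to 1.49). The second Jam2 probe gave −1.55 (SE 0.25, adjusted p = 0.00012), and its arrays did not overlap. Pecam1 was lower in 11 of 12 pools (−1.03, SE 0.45) without passing (adjusted p = 0.092). Of the 10 members, Vcam1 and Esam had ranges that did not overlap between the tissues, as did 5.65% of all probes tested.

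**Figure D2:**
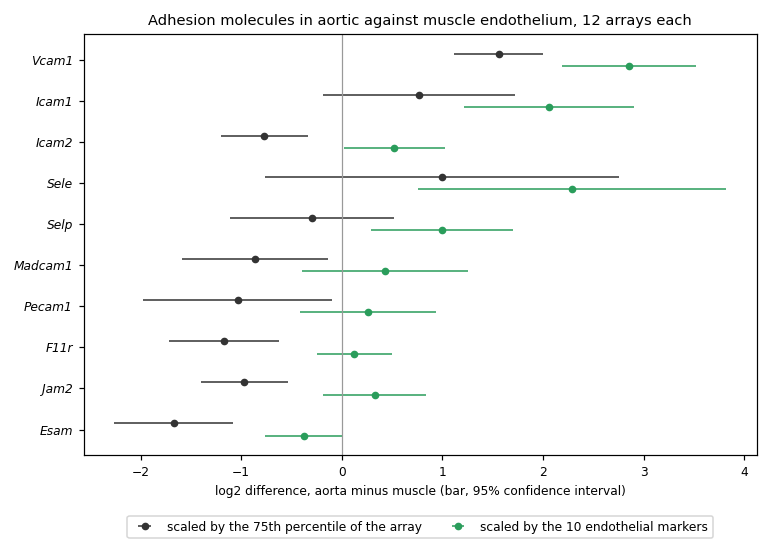
Difference between aorta and muscle (x axis, log2) for each member (y axis), with 95% confidence intervals, from 12 arrays per tissue. Black points use the 75th percentile of each array and green points the mean of 10 endothelial markers. The second scale shifts all members upward by the same amount. Vcam1 is at 1.56 on the first and 2.86 on the second, and Esam at −1.67 and −0.38.

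The aortic and muscle arrays of a strain, diet and experiment came from the same pools of mice. With the pool as a replicate block in place of the slide, 9 of 10 members passed, 3 higher and 6 lower in aorta, beside 15402 of the 27387 probes. That fit treats the pools as independent, although the arrays of a tissue and experiment shared a slide. Icam1 (adjusted p = 0.0060) and Sele (adjusted p = 0.020) then joined Vcam1 on the higher side, and Madcam1 (adjusted p = 0.00062) and Pecam1 (adjusted p = 0.0039) joined the lower side, while Selp did not pass (adjusted p = 0.28). Without experiment 1, 4 members passed, beside 4807 of the 27387 probes, and Icam2 (−0.65, adjusted p = 0.088) no longer did. Without experiment 2, 3 passed, beside 2990 of the probes, and F11r (adjusted p = 0.11) and Icam2 were lost.

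Markers of other cells also differed between the tissues, and their part in these differences was not tested. All 10 endothelial markers were called lower in aorta, by 0.90 to 2.05, as were all 4 capillary markers. Of the 7 fibroblast markers all were called higher in aorta (median 4.31, Dpt 5.73, Lum 4.72, Mfap5 4.65, Pdgfra 4.31), and their summed signal was 230 to 529 times the 75th percentile of an array in aorta and 17.4 to 162 times in muscle. Lymphatic endothelial markers were called higher in 4 of 7 cases (Ccl21a 4.44, Mmrn1 4.32, Lyve1 3.78, Reln 3.05), at median summed signals of 65.2 in aorta and 4.47 in muscle, and adipocyte markers in 4 of 5. All 8 skeletal muscle fibre markers were called lower in aorta, with summed signals of 1.12 to 7.24 against 25.1 to 169, as were 4 of 5 satellite cell markers. Smooth muscle and pericyte markers were called lower in 3 of 7 and 3 of 6 cases, arterial markers in 4 of 6 with 1 (Bmx, 2.49) higher, and venous markers in 2 of 4 with Nr2f2 (0.78) higher. Of the 8 macrophage and leukocyte markers tested, 1 (Cd14, 0.72) was called higher, and of the 5 platelet markers tested none was called (2 lower and 1 higher at an unadjusted p under 0.05).

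Because every endothelial marker was lower in aorta, the members were also set against the mean of these 10 markers (mean difference −1.29), a scale chosen after the values were seen that moved the median of all probes to 1.02. On it Vcam1 was 7.24-fold higher in aorta (2.86, SE 0.32, adjusted p = 6.9e-07), and Icam1 (2.06, SE 0.41, adjusted p = 0.00035), Sele (2.29, SE 0.74, adjusted p = 0.011) and Selp (1.00, SE 0.34, adjusted p = 0.014) were called higher as well, beside 18393 of the 27387 probes. Relative to the median of all probes, Selp stood at −0.03 on either scale. Esam (−0.38, adjusted p = 0.075), F11r (0.13) and Jam2 (0.33) no longer passed, Pecam1 (0.26) passed on neither scale, and Icam2 (0.52, adjusted p = 0.057) and Madcam1 (0.43) turned positive without passing. As this scale raises every difference by the same amount, Vcam1, already higher in aorta, could only stay higher. The second scale is therefore no separate check on the direction of Vcam1.

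The genes around the members in the adhesion cascade were counted in the same comparison. Of 13 other cytokine-induced endothelial genes tested, 7 were called higher in aorta and none lower (no gene had an unadjusted p under 0.05 on the lower side), with a median of 1.34 against −0.20 for all genes. Among them were tissue factor F3 (6.94), the prostaglandin synthase Ptgs2 (6.96), Il6 (4.94) and the monocyte chemokine Ccl2 (3.27), which fibroblasts also express. Of 18 genes of TNF, IL-1 and NF-kB signalling, 3 were called lower (the TNF receptor Tnfrsf1b −1.35, the inhibitor Nfkbib −0.61 and the NF-kB subunit Rela −0.39) and none higher (0 at an unadjusted p under 0.05). Of 14 other junction and transmigration genes, 8 were called lower (Podxl −1.69, Mcam −1.60, Emcn −0.94) and 2 higher (the tight junction gene Ocln 3.51 among them), with a median of −0.71. Of 9 Weibel-Palade body genes, which serve the store that holds P-selectin, the membrane protein Cd63 (2.32) was called higher, and Angpt2 (−1.36) and the trafficking GTPase Rab27a (−2.40) lower. Selectin ligand enzymes were called higher in 3 of 9 cases (Gcnt1 3.62 and St3gal4 0.80 among them) and lower in 2 (Tpst2 −1.02 and St3gal6 −1.16). Of 10 leukocyte counter-receptors tested, Spn (2.80, adjusted p = 0.024) was called higher.

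The second comparison asked what the HFD did to the adhesion molecules of the aorta. No member passed in the mean of both strains (lowest adjusted p = 0.20 in limma), where 0.0309% of all 25865 probes passed. At an unadjusted p under 0.05 there were 3 of 10 members, all lower on HFD, beside 15.1% of all probes. They were Selp (log2 difference −0.99, SE 0.24, adjusted p = 0.20), Pecam1 (−1.40, SE 0.41, adjusted p = 0.24) and Esam (−1.05, SE 0.35, adjusted p = 0.26). The other members were Sele (−0.72), F11r (−0.66), Icam2 (−0.37), Icam1 (−0.28), Jam2 (−0.08), Vcam1 (0.05) and Madcam1 (0.26). The median over the members was −0.52 and that over all genes 0.05.

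**Figure D3:**
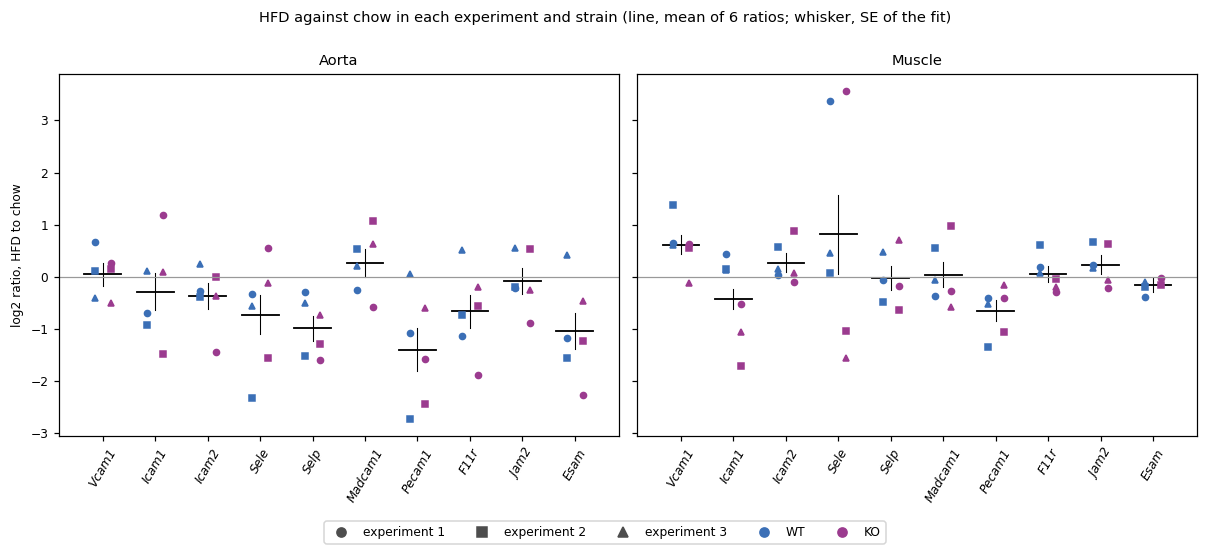
Log2 ratio of HFD to chow (y axis) for each member (x axis) in aorta and muscle. Points are the ratios of WT and KO in the 3 experiments, lines the mean of the 6 ratios and whiskers the SE of the fit. In aorta all 6 ratios of Selp are below 0, and in muscle all 6 ratios of Pecam1 and of Esam. The share of all probes with 6 ratios on the same side of 0 was not counted.

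Selp in aorta was at −3.03, −0.46 and −0.88 in WT on chow (experiments 1 to 3) and at −3.32, −1.99 and −1.39 in WT on HFD. In KO it was at −1.75, −0.62 and −0.31 on chow and at −3.35, −1.90 and −1.04 on HFD. It was lower on HFD in all 6 pairs, by 0.30 to 1.60, and on its second probe too (−1.21, SE 0.40), yet the groups overlapped because experiment 1 was low on both diets. Without the pairing, its unadjusted p was above 0.05. Without experiment 1 the difference was −1.01 (adjusted p = 0.39 in limma), and scaled by the endothelial markers it was −0.37 (adjusted p = 0.57). The share of all probes with the same direction in all 6 pairs was not counted.

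Pecam1, which supports the passage of leukocytes between endothelial cells, was at −0.40, 2.26 and 0.96 in WT on chow and at −1.48, −0.48 and 1.00 in WT on HFD. In KO it was at 0.68, 1.50 and 2.02 on chow and at −0.90, −0.95 and 1.43 on HFD. It was lower on HFD in 5 of 6 pairs, with the pairs of experiment 3 closest together, and it moved to −0.80 without experiment 2. Esam was also lower in 5 of 6 pairs, the exception being WT in experiment 3, and its difference was −0.71 without experiment 1 (adjusted p = 0.57). Scaled by the endothelial markers, Pecam1 was at −0.78 (adjusted p = 0.33) and Esam at −0.43 (adjusted p = 0.51).

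Within the strains, 3 members had an unadjusted p under 0.05 in KO (11.3% of all probes did) and 0 in WT (5.77%). In KO these were Selp (−1.21, SE 0.34, adjusted p = 0.37), Pecam1 (−1.54, SE 0.58, adjusted p = 0.43) and Esam (−1.32, SE 0.49, adjusted p = 0.43), and in WT the same genes were at −0.78, −1.26 and −0.77. Without experiment 1, 0 members had such a p in either strain. No member was past 1 log2 in the same direction in all 3 experiments, the study's own criterion, in WT (1.59% of all probes) or in KO (2.93%).

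Markers of other cells moved with the diet in aorta, and their part in these differences was not tested. The summed signal of the 8 platelet and megakaryocyte markers was 3.91 to 8.50 (WT) and 5.49 to 15.5 (KO) times the 75th percentile on chow and 1.23 to 2.53 and 1.17 to 2.66 times on HFD, without overlap. Their mean log2 level did overlap, at −4.47 to −3.28 (WT) and −3.88 to −2.73 (KO) on chow. On HFD that mean was at −5.39 to −3.84 (WT) and −5.10 to −3.54 (KO). In experiment 3 it was higher on HFD in both strains, by 0.63 (WT) and 0.34 (KO). Pf4 (−2.02, adjusted p = 0.11), Ppbp (−2.12) and Gp1ba (−1.93) were lower on HFD at an unadjusted p under 0.05, while Gp5 was well above background on 0 and Itga2b on 3 of the 12 aortic arrays. All 5 adipocyte markers tested were lower at that p (Cidec −3.51, Cfd −4.14, Plin1 −3.24, Adipoq −4.79), and the 6 on the list summed to 73.7 to 135 (WT) and 79.9 to 258 (KO) on chow and to 3.25 to 11.4 and 4.94 to 12.2 on HFD, again without overlap. The 10 endothelial markers were all lower on HFD (median −0.58, 2 of 10 at an unadjusted p under 0.05), and their sums overlapped in WT, at 174 to 359 on chow and 119 to 288 on HFD, but not in KO, at 269.9 to 453 and 155 to 254. Arterial markers were lower in 3 of 6 cases at that p (Bmx −1.09, Efnb2 −1.13, Gja5 −0.88), and pericyte and fibroblast markers higher in 3 of 6 and 3 of 7. Macrophage and leukocyte markers were split, with 2 of 8 higher (Ptprc 1.22) and 3 lower (Lyz2 −1.99) at that p. None of these markers passed after adjustment.

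**Figure D4:**
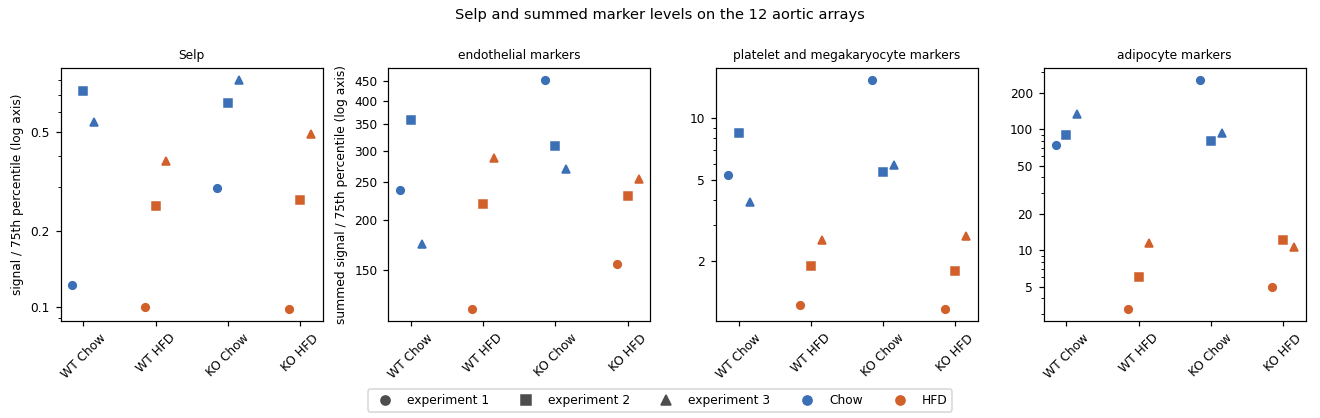
Selp and the summed signals of endothelial, platelet and adipocyte markers on the 12 aortic arrays, as multiples of the 75th percentile of the array (y axes, log scale), by strain and diet (x axis). Points are arrays, shaped by experiment. The summed platelet and adipocyte signals separate chow from HFD in both strains, though the mean log2 level of the platelet markers, not drawn, does not. Selp overlaps between the diets in both strains, and the summed endothelial signals overlap in WT but not in KO.

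In the other lists no gene passed after adjustment in aorta. At an unadjusted p under 0.05, the junction list had 3 of 14 genes lower (Ocln −1.92, Emcn −0.93, Cldn5 −0.72) and Alcam (1.07) higher. The cytokine-induced list had 2 of 13 higher (F3 1.09 and the chemokine Cx3cl1 0.58) and the signalling list 2 of 17 higher (Il1b 1.93, Ltb 1.56) and 1 lower (Chuk −0.75). Of the Weibel-Palade body genes, Rab27a (−1.92) and the vasoconstrictor precursor Edn1 (−1.12) were lower and Cd63 (0.80) higher. Of the enzymes of selectin ligands, Gcnt1 (−1.58) and St3gal6 (−0.83) were lower and Chst2 (0.93) higher, and of 9 counter-receptors 0 had such a p.

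In muscle no member passed between the diets in the mean of both strains (lowest adjusted p = 0.19 in limma, where 0.288% of 25682 probes passed), and 2 had an unadjusted p under 0.05, beside 16.4% of all probes. Vcam1 was higher on HFD (0.62, SE 0.19, adjusted p = 0.19), in 5 of 6 pairs, and its second probe gave 0.55 (SE 0.25). Its WT arrays on HFD, at 2.87 to 3.32, lay above those on chow, at 1.82 to 2.71, while the KO arrays overlapped. The share of all probes with groups so separated was not counted. On the second Vcam1 probe the WT arrays overlapped, at −3.80 to −1.82 on chow and −2.81 to −0.97 on HFD. Pecam1 was lower on HFD (−0.65, SE 0.20, adjusted p = 0.20) in all 6 pairs. Pecam1 was at 1.56, 2.06 and 2.10 in WT on chow and at 1.15, 0.71 and 1.59 on HFD, and in KO at 1.01, 2.16 and 2.08 and at 0.60, 1.11 and 1.92. Experiment 2 had the widest gap in both strains, and without it the difference was −0.37. Esam was lower in all 6 pairs by at most 0.39 (−0.16, SE 0.14). The second probe of Jam2 was higher in all 6 (0.72, SE 0.15, adjusted p = 0.12) where its brighter probe gave 0.23. In muscle, too, the share of all probes with the same direction in all 6 pairs was not counted.

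Within the strains, WT had 2 members with an unadjusted p under 0.05 (12.1% of all probes), Vcam1 (0.88, SE 0.26, adjusted p = 0.28) and Pecam1 (−0.76, SE 0.29, adjusted p = 0.37), and KO had 1 (8.49%), Icam1 (−1.10, SE 0.27, adjusted p = 0.40). Without experiment 1, the mean of both strains was −0.77 for Pecam1 and −0.62 for Icam1, the 2 members then with an unadjusted p under 0.05, and 0.61 (SE 0.27) for Vcam1. Within the strains these were Vcam1 in WT (1.00, SE 0.37), and Icam1 (−1.39, SE 0.33) and Sele (−1.30, SE 0.33) in KO. Sele rested on experiment 1 for its direction in KO, where the chow array was not well above background. No member was past 1 log2 in all 3 experiments in WT (1.83% of all probes) or KO (0.989%).

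Around these members, 6 of 12 cytokine-induced genes had an unadjusted p under 0.05 in muscle, all higher on HFD (Ccl5 2.02, Ccl2 1.98, the interferon-induced chemokine Cxcl9 1.25, Cx3cl1 0.57), with a median of 0.65 against 0.04 for all genes. None passed after adjustment. Of 9 counter-receptors, 3 were higher at that p (Cd44 0.96, Itgb7 0.78, Itgb1 0.39), and of 12 junction genes 2 (Jam3 0.50, Mcam 0.45). Of 8 Weibel-Palade body genes, 3 were lower (Rab27a −1.18, Edn1 −0.83, Angpt2 −0.58) and 1 higher (Sytl4 0.46), of 9 selectin ligand enzymes Fut4 (2.13) was higher, and of 18 signalling genes Il1r1 (0.81) was higher and Nfkbib (−0.64) lower. Fibroblast markers were higher at that p in 5 of 7 cases (Lum 2.84, Pdgfra 1.15), with summed signals of 17.4 to 116 on chow and 27.3 to 162 on HFD. Macrophage and leukocyte markers were higher in 3 of 7 (Ptprc, which encodes CD45, 2.97, Csf1r 1.58, C1qb 0.78), with summed signals of 1.75 to 3.59 on chow and 1.54 to 12.9 on HFD and 4 to 9 of 9 well above background on an array. Pericyte markers were lower in 5 of 6 (Rgs5 −0.94, Cspg4 −0.71). The part of these markers in the differences of Vcam1 and Pecam1 was not tested, and 0 of 10 endothelial markers had such a p in muscle (458 to 557 on chow and 452 to 670 on HFD).

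Between the tissues, the diet response differed by −1.20 for Selp (aorta minus muscle, SE 0.29, adjusted p = 0.24) and by −0.88 for Esam (SE 0.39, adjusted p = 0.53). These were the 2 of 10 members with an unadjusted p under 0.05, beside 9.24% of all probes, while Sele was at −1.54 with a wider error (SE 0.94, adjusted p = 0.67). After adjustment, limma called 0 members and 0% of the 27387 probes. On the same probe, Selp in muscle stood at 0.20 (SE 0.17) between HFD and chow, higher in 5 of 6 pairs, and on the probe that is brighter in muscle at −0.03 (SE 0.23), lower in 4 of 6. The second probe gave −1.18 (SE 0.49) for the difference between the tissues. Scaled by the endothelial markers, the difference between the tissues was −0.66 (adjusted p = 0.51), and without the pairing its unadjusted p was above 0.05. Without experiment 1 it was −1.27 (adjusted p = 0.51), and Selp was then the 1 member with an unadjusted p under 0.05. Sele then stood at −0.62 (SE 0.54). In experiment 1 Sele was not well above background on the muscle chow array of either strain.

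The third comparison asked whether the strains differed. In muscle, Icam1 was lower on HFD in KO in all 3 experiments (ratios of −0.53, −1.72 and −1.06) and higher in WT in all 3 (0.44, 0.15 and 0.14). It was at −2.55, −1.75 and −1.53 in KO on chow and at −3.08, −3.47 and −2.59 in KO on HFD. The lowest chow array (−2.55) was thus only just above the highest HFD array (−2.59). The shares of all probes with such opposite directions or such separate groups were not counted. In WT it was at −3.37, −2.17 and −1.12 on chow and at −2.93, −2.02 and −0.98 on HFD, where the spread between experiments exceeded the diet ratio by far. The difference between the responses was −1.34 (SE 0.38, adjusted p = 0.999) and −1.53 without experiment 1 (SE 0.47). It was the 1 member of 10 with an unadjusted p under 0.05 in muscle, where 4.12% of all probes had one, and without experiment 1 Sele joined it (−1.57, SE 0.46). Without the pairing, the unadjusted p of Icam1 was above 0.05.

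In aorta 0 members had an unadjusted p under 0.05 for the difference between the responses (2.62% of all probes), with or without experiment 1. In KO minus WT, 0 members had such a p in aorta on chow (4.41% of all probes), aorta on HFD (1.15%), muscle on chow (2.42%) or muscle on HFD (3.15%). In aorta 9 of 10 members were above 0 on each diet, from −0.21 (Icam1) to 0.71 (Esam) on chow and from −0.08 (Icam2) to 0.79 (Sele) on HFD, and all standard errors were between 0.33 and 1.11. Without experiment 1, 10 of 10 were above 0 on chow, from 0.10 (Icam1) to 0.47 (Esam), and 8 of 10 on HFD. With all experiments, the median over the members was 0.37 on chow and 0.19 on HFD, against 0.03 and 0.02 for all genes. In aorta the mean log2 level of the endothelial markers was also higher in KO. It was 3.99 against 3.51 in WT on chow, and 3.16 against 3.10 on HFD. Scaling by these markers moved the median of all probes on chow from 0.03 to −0.45, and every member with it. The part of the markers in the member differences was not tested. The 95% confidence interval of Vcam1 on chow was −0.39 to 1.09, and that of Selp −1.19 to 2.31. In muscle 7 members were above 0 on chow and 5 on HFD, with Icam1 farthest from 0 on HFD (−1.07, SE 0.60). With experiment and slide as a replicate block, Icam1 in muscle on HFD (SE 0.35, adjusted p = 0.88) had an unadjusted p under 0.05, and no member did in the other 3 comparisons. In that fit the standard error of Vcam1 in aorta was 0.27, and its differences on chow were 0.39, 0.18 and 0.48 in experiments 1 to 3. In muscle, Selp was lower in KO in 6 of 6 pairs of diet and experiment (mean −0.59, SD 0.41) on its brightest probe. On its other probe, nearly as bright there, it was lower in 4 pairs and higher in 2 (mean −0.22, SD 0.61). Esam (0.14, SD 0.14) and Madcam1 (0.30, SD 0.22) were higher in 6 of 6. Both fits took each diet by itself, and none of these had an unadjusted p under 0.05 in either fit. The mean difference over both diets was not tested. In aorta the second Jam2 probe was higher in KO in 6 of 6 pairs (mean 0.63, SD 0.49), and its brighter probe in 3. The share of all probes with 6 of 6 was not counted. Without experiment 1, Icam1 in muscle on HFD was the 1 member with an unadjusted p under 0.05 (−1.53, SE 0.55, adjusted p = 0.94), and 0 were in the other 3 comparisons.

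Experiment, rather than diet or strain, took the largest share of the spread of most members within a tissue. Experiment has 3 levels and diet and strain 2 each, and experiment 1 was also the first scan session, so experiment and session cannot be told apart for it. In aorta the share of the sum of squares over 12 arrays that went with experiment was 77.1% for Sele, 67.1% for Selp, 66.8% for Madcam1 and 66.2% for Icam1, against a median of 31.7% over 13858 genes. Esam (24.4%) and F11r (12.5%) had lower shares for experiment than for diet (40.1% and 27.7%). In muscle Selp had 83.0% and Madcam1 77.2%, against a median of 38.4% over 13510 genes, and Vcam1 alone had more for diet (51.5%) than for experiment (7.12%). Thus experiment exceeded diet in 8 of 10 members in aorta and in 9 of 10 in muscle. The medians over all genes had the same order, with 9.17% for diet in aorta and 7.66% in muscle. The share of all genes with experiment above diet was not counted. Experiment was above its median over all genes in 6 of 10 members in aorta and in 8 of 10 in muscle. Selp in muscle was at −2.97 to −2.09 in experiment 1 and at −1.75 to 0.50 in experiments 2 and 3, without overlap. Its other probe did overlap there, at −2.05 to −1.61 and at −1.82 to −0.27. Selp in aorta and every other member in both tissues overlapped too, and the share of all probes without overlap was not counted. Strain took at most 17.7% in aorta (Vcam1) and 12.5% in muscle (Esam).

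**Figure D5:**
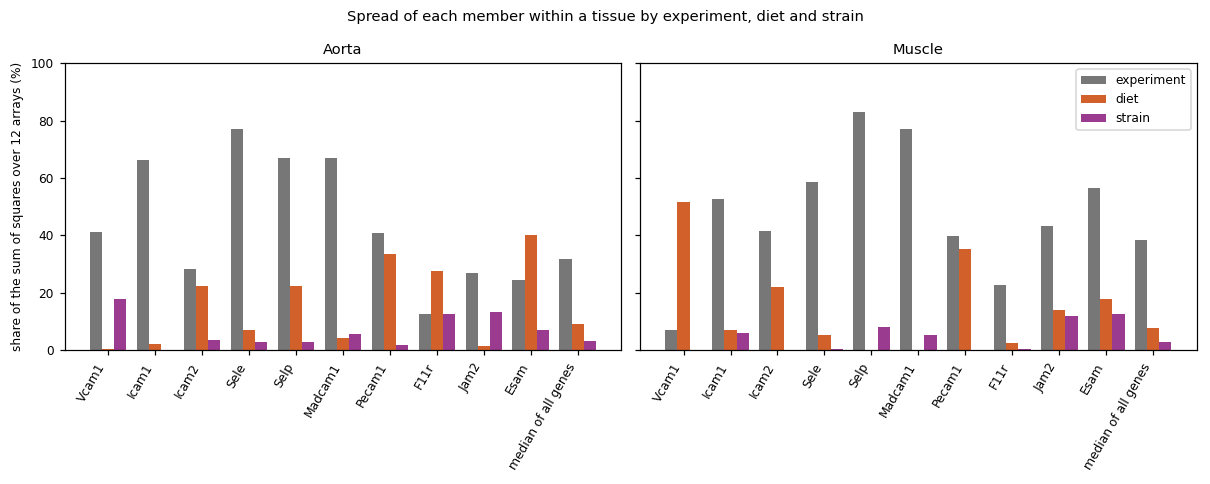
Share of the sum of squares (y axis, percent) that went with experiment, diet and strain for each member over the 12 arrays of aorta and of muscle, beside the median of all genes. Bars start at 0. The bars of experiment reach 77.1% for Sele in aorta and 83.0% for Selp in muscle, and Vcam1 in muscle has its tallest bar for diet.

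Across the 12 aortic arrays, which share slides and experiments, members varied together to different degrees (Pearson's r, given as a description). F11r and Esam had r = 0.93, Selp and Pecam1 0.91, Pecam1 and Esam 0.91, Icam1 and Sele 0.90, and Icam2 and Jam2 0.87, with a median over all pairs of 0.45. In muscle the median was 0.11, Icam1 and Selp had 0.75, and Selp and Madcam1 ran opposite ways (−0.95). Over all 24 arrays and 14137 genes, the genes whose levels ran closest to a member were found, with correlations that also carry the difference between the tissues. They were Ctla2a (0.98), Ctla2b (0.98) and B330016D10Rik (0.98) for Esam, Arap3, Gata2 and Arhgef15 (each 0.97) for F11r, and Ostf1 (0.96), Mmrn2 (0.95) and Ceacam1 (0.95) for Icam2. For Jam2 they were Hprt (0.96), Ostf1 (0.95) and B4galt4 (0.94), and for Pecam1 Tm6sf1 (0.92), 4921524J17Rik (0.91) and Tmem252 (0.91). Vcam1 ran with Myof (0.95), Ctsh (0.95) and Efna5 (0.94), which within aorta fell to 0.46, 0.25 and 0.52 and within muscle were 0.89, 0.89 and 0.71. Selp ran with Amigo2 (0.92), AU021092 (0.90) and Naip2 (0.89), and Madcam1 with Olfr1344 (0.95), Rnf151 (0.94) and Wnt1 (0.94). Icam1 (Lmo2 0.83, Krit1 0.83, Nfkbiz 0.82) and Sele (Galnt11 0.82, Eef1e1 0.81, Mir22hg 0.79) had less close companions.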

How the data were processed

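RNA of CD105+/CD45- cells sorted from pooled aortas and leg muscles was hybridised to 24 Agilent mouse arrays in 1 colour, 3 for each of 8 groups, as the labels give them. Per the file headers, the deposited processed signal intensity of each spot was made by Feature Extraction 10.5.1.1 (9.1 in the submitters' processing notes), with background subtracted and no scaling between arrays. A table of log2 values that the authors deposited served as an alternative. Intensities were divided by the 75th percentile of the array and put on the log2 scale, outlier and control spots were dropped, and spots with the same probe were averaged. Probes were named through their accession by a gene table for GRCm38.p6 (27198 of 41174 probes).

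Probes well above background (at least 0.5 of their spots) on every array of at least 1 group entered the tests (25865 for aorta, 25682 for muscle, 27387 for comparisons between them). A member with several probes was read on the brightest, over the tissue or over all 24 arrays where both tissues entered a fit. All comparisons used limma 3.58.1 under R 4.3.3 with Benjamini-Hochberg adjustment over all probes tested, and a call is an adjusted p under 0.05. Diet was compared with a block for each strain and experiment, strains by group means, and tissues with the slide as a random block (correlation 0.28). The replicate numbers are those of the independent experiments, and arrays of both tissues with 1 number came from the same pools. Deviations from the group means correlated at a median of 0.23 between HFD and chow arrays of the same number and −0.12 of different numbers, at 0.22 and −0.10 between aorta and muscle, and at 0.32 and −0.16 between WT and KO (11 of 12 pairs above 0.1). The p-values for diet and strain within a tissue therefore rest on pools of separate mice. Those between the tissues do not, since both tissues came from the same pools and the main fit did not pair them. The number of arrays limits the precision.

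Named were the 10 members, Lgals3, the 3 genes most correlated with each member, and of each other list at most the 4 genes with the smallest p. The members and the 19 other lists were chosen with earlier results of these data known. Alternatives were normexp (offset 50), which used median spot signals, quantile normalization, the deposited table, other filters on dim probes, each experiment left out, other blocks, the other probe, the methods' t-tests on the ratios and, chosen after the values were seen, scaling by 10 endothelial markers or by the median of both tissues. The steps were tested on simulated data.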

Additional observations from a re-analysis of the deposited data

Results flagged for a closer look

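In muscle, the diet response of Icam1 in KO minus that in WT was −1.34, and all 3 KO experiments were lower on HFD while all 3 WT experiments were higher. The test of the difference in limma gave an adjusted p = 0.999, and an unadjusted p under 0.05. F11r had the same split in muscle at −0.46 (SE 0.30, adjusted p = 0.999 in limma). Both genes were picked out from the members because of this split. The share of all probes with it was not counted, so how often it arises by chance cannot be told here. The arrays of experiment 1 on HFD, which fell between WT and KO in strain-separating probes, are part of both splits, and without them the difference of Icam1 was −1.53.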

How the results depend on the processing

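Between aorta and muscle, 5 members passed, and 3 to 6 did with 1 experiment left out. The replicate block by pool, which leaves out the slide, gave 9. Leaving out 1 experiment moved Selp between −0.54 and 0.05 (0.0468 without experiment 1, where its sign turned). Scaled by the endothelial markers, 6 members turned from below to above 0, namely Icam2 (0.52), Selp (1.00), Madcam1 (0.43), Pecam1 (0.26), F11r (0.13) and Jam2 (0.33), as this scaling takes the mean difference of the markers (−1.29) off every gene. Icam2 also lost its call in the deposited table (−0.51, adjusted p = 0.085) and with the tissue medians set equal (−0.50, adjusted p = 0.095), and Pecam1 gained one without experiment 3 (adjusted p = 0.049). Without any block, Pecam1 and Madcam1 passed (both adjusted p = 0.023). Of the values of single members under an alternative, 266 kept direction and call, 7 turned, 6 lost and 9 gained a call. For diet and strain, only members with an unadjusted p under 0.05 in the main fit entered this count. None of those was called there, so a kept call means no call in both fits. Of the 7 turns, 6 came from the endothelial scaling. The count is therefore no rate of robustness.

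Over all probes, calls between the tissues ranged from 2990 (without experiment 2) to 18848 (endothelial scaling, 18393 of them higher in aorta) around 7718 (3143 higher), and the deposited table gave 6272 (4190 higher). Diet calls ranged from 0 to 508 around 8 in aorta and from 0 to 274 around 74 in muscle, and 0 to 25 around 0 for their difference. In aorta, WT alone had 0 to 28 around 0 and KO 0 to 131 around 0. In muscle, WT had 0 to 29 around 0 and KO 0 to 5 around 1. Strain calls in aorta on chow ranged from 0 to 10 around 3. No member was called for diet or strain under any alternative run. Sele was not well above background on every muscle array, which limits its values there.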
